A study of Homo sapiens with 9 samples.

Results

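The 8 genes described here encode the enzymes, the carrier and the associated proteins of de novo fatty acid synthesis: SLC25A1, ACLY, ACSS2, ACACA, ACACB, MID1IP1, FASN and PNPLA3. They were taken by symbol from a table of 60671 genes, in which each of the 8 symbols named 1 row, and all 8 passed the filter on low values. RNA was measured in AC16 cells, an established human line that arose from the fusion of adult ventricular cells with a transformed fibroblast line and is labelled as a cardiomyocyte line. Of the 9 libraries, 3 came from cells in low glucose, 3 from cells in high glucose and 3 from cells in high glucose to which chrysin, a plant flavonoid, was added. The labels name no genotype, transgene or vehicle, and no source used here gives the glucose concentrations, the chrysin dose or the treatment time. The title of the series is about chrysin, ferroptosis in diabetic cardiomyopathy and the desaturase SCD1, which acts on the fatty acids that these genes produce.

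De novo synthesis turns carbon from glucose or acetate into palmitate. Citrate made in mitochondria leaves through the carrier SLC25A1 and is split in the cytosol by ACLY into oxaloacetate and acetyl-CoA, while ACSS2 makes acetyl-CoA from acetate. The acetyl-CoA carboxylases then make malonyl-CoA: ACACA is cytosolic and feeds FASN, the multifunctional synthase that builds palmitate, whereas ACACB sits at the mitochondrial outer membrane, where its malonyl-CoA inhibits the carnitine palmitoyltransferases that admit fatty acids for oxidation. MID1IP1 binds the carboxylases and promotes their polymerisation, and PNPLA3, a patatin-like phospholipase of lipid droplets, is a known target of the lipogenic transcription factor SREBP-1c. The adult heart mainly oxidises fatty acids, and ACACB is the carboxylase usually associated with it.

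Between high glucose and high glucose with chrysin the 8 genes did not all move the same way. ACACA, FASN and ACLY rose with chrysin, to 1.52, 1.23 and 1.11 times their mean FPKM in high glucose (FPKM counts the fragments of a gene per kilobase of its transcript length and per unit of sequencing depth). PNPLA3, ACACB and SLC25A1 fell to 0.613, 0.650 and 0.772 times theirs. The differences of ACSS2 and MID1IP1 did not pass the test. Between low and high glucose only PNPLA3 passed it, with a rise to 1.17 times the low glucose mean.

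Promoter sequence is shown for the pairs that moved in opposite directions with chrysin: SLC25A1 and ACLY, which export and split citrate, and the carboxylase isozymes ACACA and ACACB. The sequences are from a set of RefSeq promoter windows on GRCh38.p14. The set used here held 6 of the 8 genes, with 11 start sites in all, and had no window for FASN or PNPLA3. Each printed sequence runs 5′ to 3′ on the gene's strand and ends just before the start site or at the first annotated exon. Capitals mark CCAAT, the element bound by NF-Y, and GGGCGG, the element bound by Sp1, on either strand (ATTGG and CCGCCC on the other). The SLC25A1 window is chr22:19178831-19178986 (minus strand) and that of ACLY chr17:41919023-41919272 (minus). Those of ACACA are chr17:37406950-37407086 and chr17:37359122-37359346 (minus), and those of ACACB chr12:109116337-109116586 and chr12:109154429-109154678 (plus).
SLC25A1: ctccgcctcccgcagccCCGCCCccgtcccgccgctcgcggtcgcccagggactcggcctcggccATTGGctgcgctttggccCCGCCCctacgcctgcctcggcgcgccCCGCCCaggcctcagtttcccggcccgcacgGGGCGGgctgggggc
ACLY: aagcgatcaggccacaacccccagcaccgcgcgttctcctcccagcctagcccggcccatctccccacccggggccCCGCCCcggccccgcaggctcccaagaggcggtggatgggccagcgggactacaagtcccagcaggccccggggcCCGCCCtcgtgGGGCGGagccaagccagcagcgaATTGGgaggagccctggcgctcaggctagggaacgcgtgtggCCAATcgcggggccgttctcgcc
ACACA outer start: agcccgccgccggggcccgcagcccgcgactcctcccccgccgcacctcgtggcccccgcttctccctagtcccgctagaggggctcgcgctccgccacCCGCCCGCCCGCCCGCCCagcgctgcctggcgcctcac
ACACA next start: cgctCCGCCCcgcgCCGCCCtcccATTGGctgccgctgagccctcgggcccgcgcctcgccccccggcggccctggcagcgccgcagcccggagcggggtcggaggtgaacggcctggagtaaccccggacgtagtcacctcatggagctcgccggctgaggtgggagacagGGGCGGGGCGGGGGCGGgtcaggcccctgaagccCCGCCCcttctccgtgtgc
ACACB outer start: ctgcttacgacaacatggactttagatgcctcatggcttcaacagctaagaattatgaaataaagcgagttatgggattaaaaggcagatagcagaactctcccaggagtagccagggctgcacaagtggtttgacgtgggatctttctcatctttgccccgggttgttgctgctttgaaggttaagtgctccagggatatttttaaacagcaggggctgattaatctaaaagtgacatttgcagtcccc
ACACB inner start: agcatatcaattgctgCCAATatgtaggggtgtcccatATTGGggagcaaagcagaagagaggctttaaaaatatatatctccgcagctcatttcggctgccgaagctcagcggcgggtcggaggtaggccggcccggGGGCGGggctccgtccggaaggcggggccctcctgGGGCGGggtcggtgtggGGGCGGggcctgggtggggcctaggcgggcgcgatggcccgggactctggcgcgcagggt

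For each gene the outermost start sites are shown, 1 for the citrate genes and a pair for the carboxylases. A further ACACA window, chr17:37299768-37300017 (minus), is not printed: it holds 2 CCAAT and 0 GGGCGG elements, with 43.6% G and C. All 4 genes have at least 1 window with several GGGCGG elements, and the ACACB outer window shown has no match to any motif searched. Over the 250 bases before each of the 11 start sites, CCAAT was present in 8 and GGGCGG in 9, against 32.0% and 42.6% of the 35116 RefSeq windows of that length. The E-box CACGTG, which ChREBP and USF factors can bind, was in 0 of the 11 (6.34% of all windows). The sterol regulatory element TCACNCCAC was in 1, that of MID1IP1, where it lies on the opposite strand (0.883% of all windows). The motifs searched can overlap one another, both strands were read, and a match describes letters only. Several of the 11 windows belong to the same gene and some overlap. Their G and C content ran from 43.6% to 81.6%, and the background windows were not matched for it.

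Recovered reads came to between 18171842 and 23024300 per library. TXNIP, a gene induced by glucose, was read as a check of the glucose labels: it averaged 79.2 FPKM in high glucose, against 5.90 in low glucose and 16.3 where chrysin was added. High glucose library 1 stood apart from the other high glucose libraries (28.1 and 31.5 chi-square units per gene, where all other pairs of replicates had 4.82 to 7.44), so its effect is given where it matters. The labels do not say whether the libraries of a group came from separate cultures, so the p-values rest on the variation among these libraries alone, and that may be technical. Of 14 cardiomyocyte markers only 2 reached 0.5 FPKM in any group, and MYL2, NKX2-5 and TBX5 were at 0 in every library. Adipocyte markers (ADIPOQ and FABP4 at 0) and hepatocyte markers (APOB and FGB at 0) each summed to under 1 FPKM in every library. All 10 fibroblast markers were expressed. Their FPKM summed to 6944 to 7100 in the chrysin libraries, 9894 to 10301 in high glucose and 8578 to 8843 in low glucose. COL1A1 was the largest part of these sums, with means of 2899, 5138 and 3707 FPKM in the same order. From low to high glucose 3 of the 10 were called higher and 1 lower, and 6 were not called (median log2 fold change 0.04). With chrysin against high glucose 9 of the 10 fell, with a median log2 fold change of -0.75. The fall of VIM among them was small (-0.06, limma adjusted p = 0.027) and lost its call in 6 of 18 alternative analyses: without chrysin library 1, 2 or 3 (0.072, 0.058 and 0.097), without high glucose library 2 (0.0501), with no filter on low values (0.136) and with only the groups compared in the fit (0.066). The fibroblast markers thus moved between the same groups as the synthesis genes, and their part in the results below was not tested. In bulk RNA, fewer cells of a type and less RNA per cell cannot be told apart.

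Most of the 8 genes were well expressed in AC16 cells. By FPKM, a level per length, FASN was highest in high glucose at 317 ± 12.7 (SD, n = 3), which placed its mean over all libraries above 98.3% of the genes tested. ACLY followed at 236 ± 2.07 FPKM, then SLC25A1 at 100.1 ± 7.44, ACSS2 at 57.0 ± 0.788 and ACACA at 41.9 ± 2.73. PNPLA3 (22.2 ± 1.29), MID1IP1 (14.2 ± 0.871) and ACACB (3.63 ± 0.50) were lowest. No neighbours in this order overlapped within 1 SD in high glucose, and the carboxylase associated with heart, ACACB, was the lowest of the 8 in all 3 groups. It rested on 107 to 249 reads per library, whereas FASN had 8873 to 14001.

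The order of FASN and ACLY depended on the gene length used. The length behind the deposited FPKM was within 19 bases of the mean length of a gene's annotated transcripts, short ones included: 1620 bases for FASN, whose longest transcript has 8565 (5.29 times as many), and 2256 for ACLY, whose longest has 4339. Per kilobase of the longest transcript, the high glucose level of FASN became 60.0 ± 2.40 (on the same library scale) and that of ACLY 123 ± 1.08, with SLC25A1 between them at 70.2 ± 5.21. ACLY then ranked 1 in every group, and FASN ranked 3, 3 and 2 in low glucose, high glucose and chrysin. On that scale the ranges of 1 SD about the means of PNPLA3 (12.03 ± 0.701) and ACACA (11.2 ± 0.728) overlapped. The ratio of 2 groups' mean FPKM does not depend on this choice, because the length cancels within a gene.

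**Figure D1:**
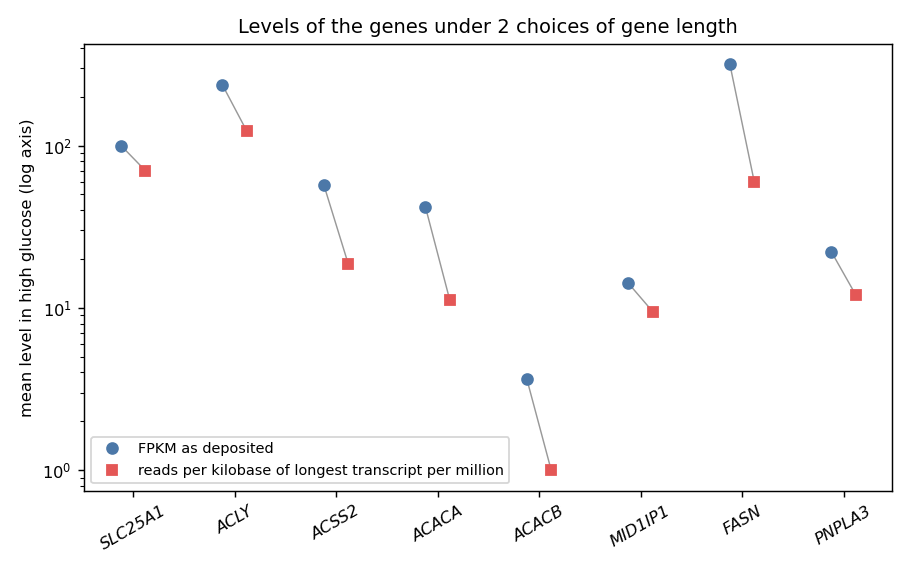
Mean level of each gene in the 3 high glucose libraries (vertical axis, log scale), as deposited FPKM (circles) and as the same reads per kilobase of the longest annotated transcript (squares); horizontal axis, the 8 genes in pathway order. FASN falls from 317 to 60.0 and ACLY from 236 to 123, so that their order turns, while ACACB is lowest on both scales.

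Chrysin in high glucose was first compared with high glucose alone, which asks how the transcripts of the pathway differ with the flavonoid under the same glucose label. Of the 8 genes 6 were called (limma adjusted p under 0.05 over all 16996 genes tested), 3 higher and 3 lower. Of all genes tested 45.8% were called in this comparison (24.9% higher and 20.9% lower), so calls were common throughout the transcriptome. The median log2 fold change of the 8 genes was 0.04, beside 0.03 for all genes tested. The groups did not overlap for any of the 8, 4 of them higher and 4 lower with chrysin, as was so for 54.3% of all genes tested (29.8% higher and 24.5% lower). Log2 fold changes are differences of log2(FPKM + 0.5), in which the added 0.5 makes those of weakly expressed genes too small.

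Among the genes that supply cytosolic acetyl-CoA, the citrate carrier and the citrate-splitting enzyme moved in opposite directions. SLC25A1 (chromosome 22, 19175575 to 19178830, minus strand, hg38) was at 109, 96.9 and 94.9 FPKM in the high glucose libraries 1 to 3 and at 73.6, 78.5 and 79.8 with chrysin. All chrysin values were below all high glucose values, and library 1 of high glucose was the highest of the 9. SLC25A1 fell by 0.37 on the log2 scale (SE 0.05, adjusted p = 0.00017), and by 0.31 without high glucose library 1 (adjusted p = 0.00020). ACLY (chromosome 17, 41866908 to 41930542, minus strand) was at 235, 235 and 239 FPKM in high glucose and at 264, 266 and 260 with chrysin. The spread within each group was a few FPKM, which made a rise of 0.16 (SE 0.02, adjusted p = 0.00034) detectable, although 63.9% of genes tested changed by more.

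ACSS2, the acetate-using route to the same product (chromosome 20, 34872146 to 34927962, plus strand), was at 56.9, 57.8 and 56.2 FPKM in high glucose and at 54.5, 54.3 and 52.3 with chrysin. The chrysin values were all lower, but by a small margin, and the difference did not pass the test (-0.08, 95% interval -0.16 to -0.01 before adjustment, adjusted p = 0.064). It passed with median-of-ratios scaling (-0.11, adjusted p = 0.029) and after correction for GC content and length (-0.10, adjusted p = 0.034). Within a library, ACSS2 made up 19.5%, 19.7% and 19.1% of the summed FPKM of ACSS2 and ACLY in high glucose and 17.1%, 17.0% and 16.7% with chrysin. The share was therefore lower in every chrysin library, with a difference of -2.48 percentage points (exact two-sided permutation test, p = 0.1, the smallest that 3 against 3 libraries can give). Its level depended on the gene length used. Per kilobase of the longest transcript the means were 13.2% in high glucose and 11.4% with chrysin, beside 19.4% and 16.9% by FPKM. ACSS2 overlaps GGT7 on the opposite strand by 715 bases, and no source used here says whether reads were counted by strand. GGT7 itself differed by 0.08 (limma adjusted p = 0.19).

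**Figure D2:**
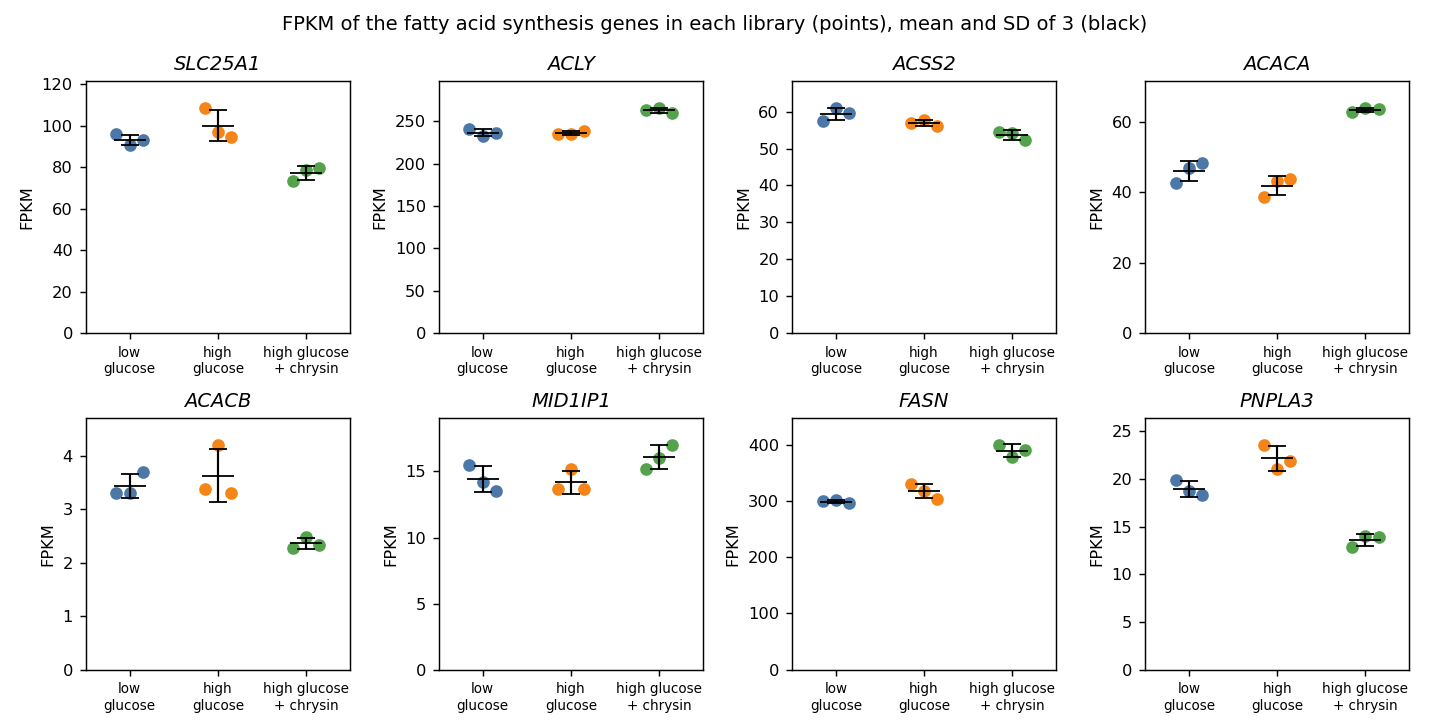
FPKM (vertical axes, from 0) of the 8 genes in each library (points) by treatment group (horizontal axes), with the mean and SD of 3 libraries in black. ACACA, FASN and ACLY sit higher with chrysin than in both other groups, and SLC25A1, ACACB and PNPLA3 sit lower, while low and high glucose lie close together for most genes.

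The carboxylase isozymes moved in opposite directions. ACACA (chromosome 17, 37084988 to 37406818, minus strand) was at 38.8, 43.1 and 43.8 FPKM in high glucose and at 63.0, 64.0 and 63.6 with chrysin. The chrysin libraries lay close together and far above every high glucose library. ACACA rose by 0.60 on the log2 scale (SE 0.05, adjusted p = 9.2e-06), and 13.8% of genes tested changed by more. ACACB (chromosome 12, 109116595 to 109268226, plus strand) was at 3.38, 4.20 and 3.29 FPKM in high glucose and at 2.27, 2.48 and 2.33 with chrysin. Library 2 of high glucose was the highest, and no library of either group reached the other. ACACB fell by 0.52 (SE 0.11, adjusted p = 0.0025), and by 0.43 without high glucose library 2 (adjusted p = 0.011).

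As a share of the summed FPKM of both isozymes, ACACB made up 8.02%, 8.88% and 6.99% in the high glucose libraries and 3.47%, 3.72% and 3.54% with chrysin. The difference of the means, 3.58% ± 0.13 with chrysin and 7.96% ± 0.94 without it (SD, n = 3), was -4.39 percentage points (exact two-sided permutation test, p = 0.1, the smallest possible here). Counted per kilobase of the longest transcript of each gene, the means were 8.19% and 3.68%. ACACA was thus by far the more abundant carboxylase transcript in every library on either length. MID1IP1, the partner of the carboxylases (chromosome X, 38801432 to 38806537, plus strand), was at 13.7, 15.2 and 13.7 FPKM in high glucose and at 15.2, 16.1 and 17.0 with chrysin. The highest high glucose library and the lowest chrysin library were equal to 3 digits. The difference, 0.18 (SE 0.07), missed the threshold (adjusted p = 0.054), and it passed in 6 of 18 alternative analyses, among them limma voom on recovered reads (0.18, adjusted p = 0.020) and without high glucose library 2 (0.23, adjusted p = 0.031), chrysin library 1 (0.22, adjusted p = 0.043) or low glucose library 1 (adjusted p = 0.045).

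**Figure D3:**
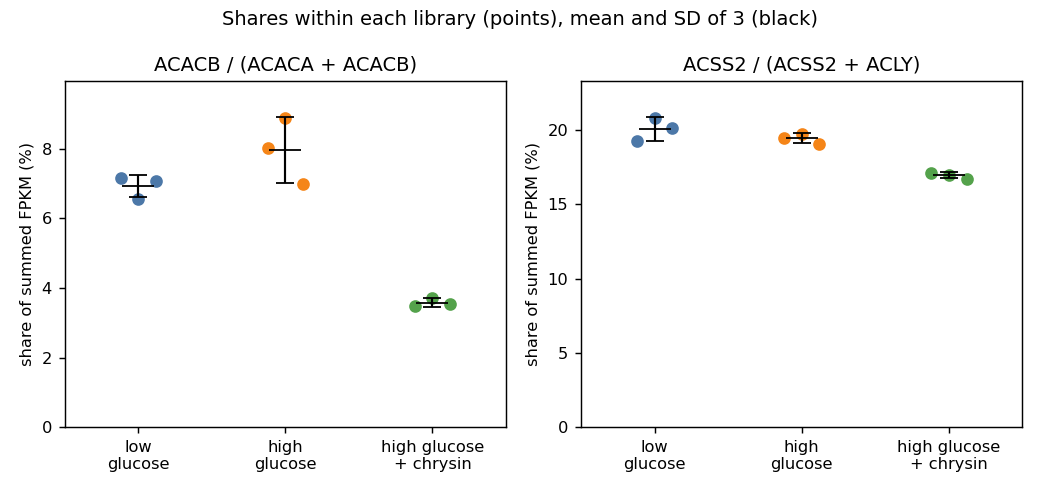
Share of the summed FPKM (percent, vertical axes from 0) taken by ACACB within the carboxylase pair (left) and by ACSS2 within the pair of cytosolic acetyl-CoA sources ACSS2 and ACLY (right), for each library (points) by group, with mean and SD of 3 in black. The ACACB share is 6.57% to 8.88% in the libraries without chrysin and 3.47% to 3.72% in those with it.

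FASN, which builds the fatty acid itself (chromosome 17, 82078333 to 82098332, minus strand), was at 329, 318 and 304 FPKM in high glucose and at 400, 378 and 390 with chrysin. The lowest chrysin library was well above the highest high glucose library. FASN rose by 0.30 on the log2 scale (SE 0.03, adjusted p = 3.2e-05). PNPLA3 (chromosome 22, 43923739 to 43964488, plus strand) had the largest absolute log2 fold change of the 8, in the other direction. It was at 23.6, 21.1 and 21.9 FPKM in high glucose and at 12.8, 14.0 and 14.0 with chrysin, with no overlap. PNPLA3 fell by 0.68 (SE 0.06, adjusted p = 5.9e-06), and 10.4% of genes tested changed by more. Its annotated span shares 9068 bases with SAMM50 on the same strand. SAMM50 differed by 0.03 with chrysin (limma adjusted p = 0.70).

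The 6 calls kept their direction and stayed under an adjusted p of 0.05 in each of the 18 alternative analyses run for them (17 for ACACB, which a filter of 5 FPKM removes). The log2 fold change of ACACA ranged from 0.54 to 0.63, that of FASN from 0.27 to 0.33 and that of ACLY from 0.13 to 0.16. For PNPLA3 the range was -0.72 to -0.64, for ACACB -0.62 to -0.43 and for SLC25A1 -0.41 to -0.31.

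**Figure D4:**
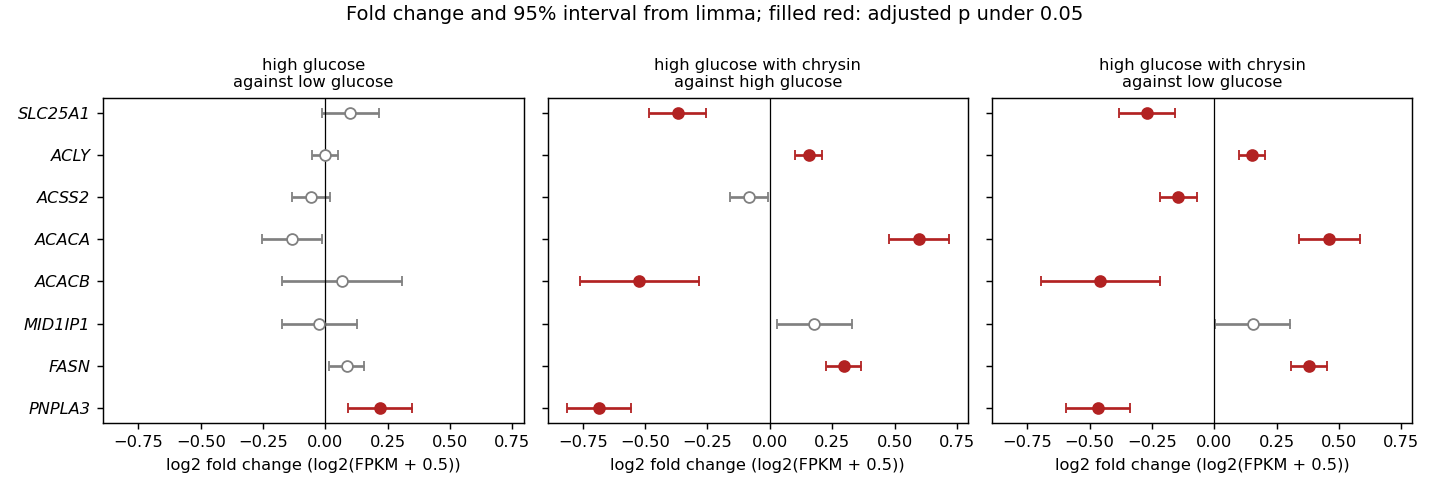
Log2 fold change (horizontal axes, log2(FPKM + 0.5) scale) of each gene with its unadjusted 95% interval from limma, in the 3 comparisons; filled red points have an adjusted p under 0.05. In the middle panel ACACA, FASN and ACLY lie right of 0 and PNPLA3, ACACB and SLC25A1 left of it, and in the left panel only PNPLA3 is filled.

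High against low glucose asks how the genes differ with the glucose label alone, and shares its high glucose libraries with the comparison above. Of the 8 genes 1 was called, higher in high glucose, against 23.5% of all genes tested (14.6% higher and 8.91% lower), and the median log2 fold change of the 8 was 0.03 beside 0.02 for all genes. PNPLA3 was at 19.9, 18.7 and 18.3 FPKM in low glucose, below each high glucose library, and rose by 0.22 (SE 0.06, limma adjusted p = 0.021). The call was lost without high glucose library 1 (0.18, adjusted p = 0.061), low glucose library 2 (0.21, adjusted p = 0.061) or low glucose library 3 (0.19, adjusted p = 0.076). SAMM50, which overlaps it, differed by a similar amount (0.23, adjusted p = 0.012).

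FASN was at 299, 301 and 296 FPKM in low glucose, also below every high glucose library; 2 of the 8 genes, FASN and PNPLA3, had groups that did not overlap, both higher, against 37.9% of all genes (22.5% higher and 15.4% lower). The FASN difference did not pass the test (0.09, 95% interval 0.01 to 0.16 before adjustment, adjusted p = 0.083). After correction for GC content and length it was -0.02 (adjusted p = 0.72), while it passed without high glucose library 3 (0.11, adjusted p = 0.027) and in the voom analysis of recovered reads (adjusted p = 0.039). ACACA was at 42.8, 46.8 and 48.5 FPKM in low glucose, of which the lowest lay within the high glucose range. Its difference did not pass (-0.14, adjusted p = 0.10), but passed without low glucose library 1 (-0.19, adjusted p = 0.038), with voom (0.040) and after the GC content and length correction (0.045).

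The remaining genes showed smaller or less certain differences between the glucose groups. SLC25A1 was at 95.9, 90.7 and 93.2 FPKM in low glucose and differed by 0.10 (adjusted p = 0.20), of which 0.04 was left without high glucose library 1 (adjusted p = 0.53). ACLY, at 241, 232 and 236 FPKM in low glucose, differed by -0.002 with a 95% interval of -0.05 to 0.05, the narrowest of the 8. ACSS2 was at 57.5, 61.0 and 59.6 FPKM (-0.06, adjusted p = 0.25) and passed only after the GC content and length correction (-0.11, adjusted p = 0.029). ACACB was at 3.30, 3.29 and 3.69 FPKM (0.07, adjusted p = 0.71) and MID1IP1 at 15.5, 14.2 and 13.5 (-0.02, adjusted p = 0.85). The 95% interval of ACACB ran from -0.17 to 0.31 and included 0. The share of ACACB within the carboxylase pair was 7.15%, 6.57% and 7.06% in low glucose, overlapping high glucose (1.04 percentage points higher in high glucose, exact permutation test, p = 0.3). The ACSS2 share was 19.2%, 20.8% and 20.1%, and also overlapped (-0.63 percentage points, exact permutation test, p = 0.3).

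Chrysin in high glucose was also set against low glucose. This comparison shares its libraries with the other comparisons, so it is given side by side with them and not as further evidence. Of the 8 genes 7 were called, 3 higher and 4 lower, against 51.0% of all genes tested (29.7% higher and 21.3% lower). For 7 of the 8 the groups did not overlap, against 60.0% of all genes (34.6% higher and 25.4% lower). ACACA was higher by 0.46, FASN by 0.38 and ACLY by 0.15 (limma adjusted p = 4.4e-05, 3.8e-06 and 0.00030). The log2 fold change of PNPLA3 was -0.47, that of ACACB -0.46 and that of SLC25A1 -0.27 (adjusted p = 6.8e-05, 0.0048 and 0.0012). ACSS2, which missed the threshold against high glucose, passed it here (-0.14, SE 0.03, adjusted p = 0.0048), and its groups did not overlap. MID1IP1 overlapped and did not pass (0.15, adjusted p = 0.083), except with voom (0.16, adjusted p = 0.040) and without low glucose library 1 (0.21, adjusted p = 0.038). The chrysin level of PNPLA3, 13.6 ± 0.666 FPKM, was thus below the low glucose level of 19.0 ± 0.812 as well as below high glucose, and that of FASN, 389 ± 11, above both 299 ± 2.96 and 317 ± 12.7 (SD, n = 3).

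Genes that control lipogenesis were described next, from lists chosen by function. A gene's changes in the 2 comparisons with high glucose share those libraries and are not independent. Of 14 lipogenic regulators tested, 2 rose and 7 fell with chrysin against high glucose (median -0.10). Of all genes tested 24.9% were called higher and 20.9% lower in that comparison, which is the background for each list below. INSIG1, which retains the SREBP escort protein SCAP in the endoplasmic reticulum, fell from 124 to 69.3 FPKM (-0.83, adjusted p = 6.3e-07). MBTPS1, the site-1 protease that cleaves SREBPs, fell from 169 to 129 FPKM (-0.39, adjusted p = 1.2e-06), and MLXIP, the glucose-sensing factor MondoA, from 49.0 to 36.5 (-0.42, adjusted p = 9.4e-06). SCAP and the site-2 protease MBTPS2 were the regulators that rose (0.28 and 0.29, adjusted p = 0.00064 and 0.0023). SREBF1, the gene of SREBP-1c, averaged 46.2 ± 2.19 FPKM with chrysin and 49.0 ± 2.12 for high glucose alone (SD, n = 3). Its low glucose mean was 43.7 ± 2.62. The means of SREBF2 were 101 ± 2.08, 96.1 ± 2.35 and 103 ± 0.791 FPKM in that order. MLXIPL, the gene of ChREBP, averaged 0.0876 FPKM or less in each group and was not tested. Between the glucose groups 4 of the 14 rose and 1 fell, beside 14.6% higher and 8.91% lower of all genes tested. INSIG2 was 0.46 higher in high glucose (adjusted p = 0.0012) and USF1, a basic helix-loop-helix factor that acts on the FASN promoter, 0.26 higher (adjusted p = 0.0044), and both fell with chrysin (-0.48 and -0.44, adjusted p = 0.00032 and 4.4e-05). AMP-activated kinase phosphorylates and inhibits both carboxylases. Of 8 genes for its subunits and activating kinases, 1 rose and 1 fell with chrysin: the beta subunit PRKAB1 (0.34, adjusted p = 0.00036) and the catalytic subunit PRKAA1 (-0.29, adjusted p = 0.00047).

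Upstream of SLC25A1, 16 genes that take pyruvate to citrate in mitochondria were tested; 5 rose and 9 fell with chrysin (median -0.16). PDK1, a kinase that inhibits pyruvate dehydrogenase, fell from 14.7 to 5.37 FPKM (-1.38, adjusted p = 9.2e-08), and PDP1, a phosphatase with the opposite action, fell from 52.6 to 37.7 (-0.47, adjusted p = 7.7e-06). Citrate synthase, CS, fell slightly from 259 to 238 FPKM (-0.12, adjusted p = 0.0055). Of 6 other enzymes of acetyl-CoA, AACS, which activates acetoacetate in the cytosol, rose (0.45, adjusted p = 1.3e-05) and ACAT2, a cytosolic thiolase, fell (-0.21, adjusted p = 0.0010). FASN also needs NADPH. Of 6 cytosolic NADPH enzymes, 1 rose and 2 fell. IDH1 fell from 104 to 78.3 FPKM (-0.40, adjusted p = 1.5e-06) and MTHFD1 fell (-0.15, adjusted p = 0.0012). IDH1 had been higher in high than in low glucose (0.23, adjusted p = 0.00030).

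The cofactors of the carboxylases and FASN are biotin and phosphopantetheine. Of 11 genes of their supply and attachment, 3 rose and 1 fell with chrysin (median 0.13). BTD, which recycles biotin, fell from 15.4 to 9.06 FPKM (-0.73, adjusted p = 2.6e-06). COASY and PANK2, enzymes of coenzyme A synthesis, rose by 0.42 and 0.34 (adjusted p = 1.5e-05 and 0.00015). Of 5 genes that use, make in mitochondria or remove malonyl-CoA, 3 rose and 1 fell (median 0.35). ACSF3, the mitochondrial malonyl-CoA synthetase, rose by 0.56 (adjusted p = 3.2e-05), MCAT, the mitochondrial malonyltransferase, by 0.35 (adjusted p = 0.00092) and MLYCD, the decarboxylase that destroys malonyl-CoA, from 1.38 to 2.32 FPKM (0.58, adjusted p = 0.0033). CPT1C, the brain-type carnitine palmitoyltransferase, fell (-0.28, adjusted p = 0.00052). ACSF3 and MCAT also belong to mitochondrial fatty acid synthesis, a separate pathway, in which 4 of 9 genes rose and 1 fell. NDUFAB1, its acyl carrier protein, rose from 65.8 to 95.7 FPKM (0.54, adjusted p = 8.1e-06).

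Downstream of FASN, 7 of 17 elongation and desaturation genes rose and 5 fell with chrysin (median 0.04). All 3 FADS genes fell: the front-end desaturases of polyunsaturated fatty acids FADS1 (-0.54, adjusted p = 2.5e-07) and FADS2 (-0.33, adjusted p = 9.4e-06), and FADS3 (-0.38, adjusted p = 9.1e-06). SCD, the stearoyl-CoA desaturase of the title, rose (0.22, adjusted p = 0.00051), while ELOVL6, which elongates palmitate, fell from 26.5 to 21.5 FPKM (-0.29, adjusted p = 0.00072). ELOVL6 had been higher in high than in low glucose (0.42, adjusted p = 0.00023), as were 5 of the 17 in all, with 2 lower. Sterol genes under SREBP control also went both ways with chrysin, 5 of 23 higher and 9 lower (median -0.04); TM7SF2, a sterol reductase, fell from 18.2 to 9.62 FPKM (-0.88, adjusted p = 8.9e-06) and HMGCS1 from 217 to 170.0 (-0.35, adjusted p = 1.8e-05). Against low glucose 4 of the 23 were higher and 13 lower, beside 29.7% higher and 21.3% lower of all genes tested. All 6 patatin-like phospholipase and co-activator genes tested beside PNPLA3 passed the test with chrysin against high glucose, 3 in each direction. Of all genes tested 45.8% did. PNPLA2, the adipose triglyceride lipase, fell (69.3 to 40.3 FPKM, -0.77, adjusted p = 7.7e-07), as did PNPLA8 (-0.58, adjusted p = 6.4e-06), while PNPLA4 rose (0.78, adjusted p = 3.6e-05).

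**Figure D5:**
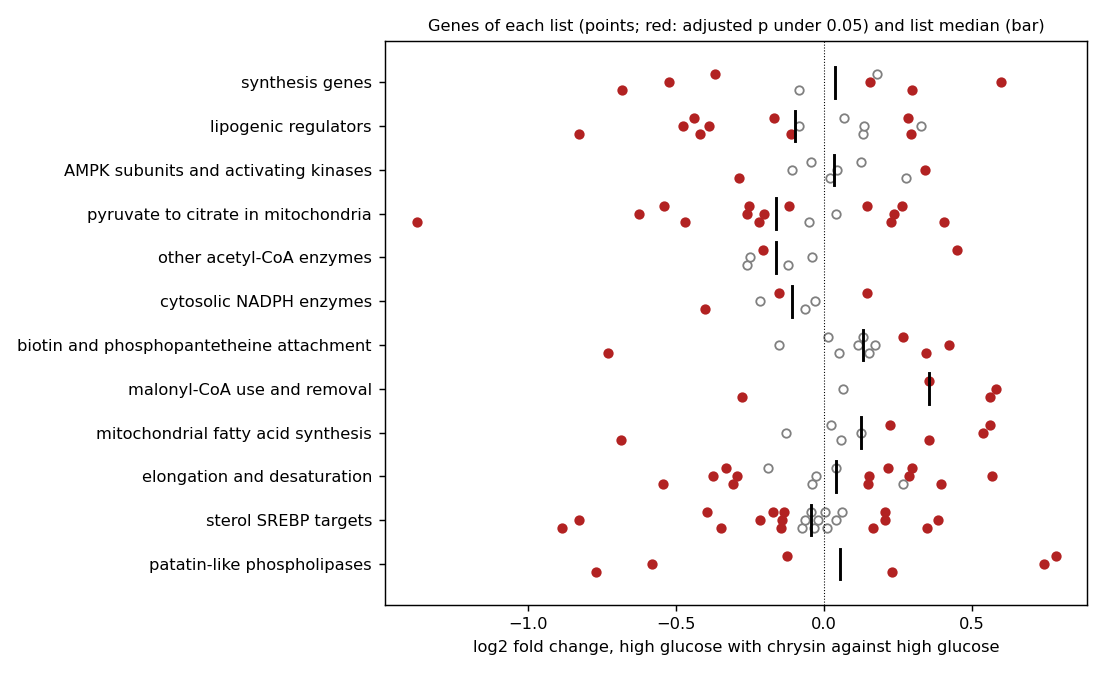
Log2 fold change with chrysin against high glucose (horizontal axis) of each gene tested in the 8 synthesis genes and 11 functional lists (vertical axis); red points have a limma adjusted p under 0.05 and black bars are list medians. Every list has called genes on both sides of 0, and the medians lie between -0.16 and 0.35.

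Between the glucose groups the same lists held fewer called genes, as did the whole table (14.6% higher and 8.91% lower of all genes tested). In high glucose 3 of the 16 genes from pyruvate to citrate, 1 of the 6 other acetyl-CoA enzymes, 1 of the 6 NADPH enzymes and 2 of the 11 cofactor genes were called higher. Of these 7 calls 6 were lost when a certain single library was left out. The pyruvate genes MPC2, PDK3 and CS all lost theirs without low glucose library 2 (adjusted p = 0.055, 0.079 and 0.055), and at least 1 of them did whichever other library of the glucose groups was left out. The cofactor genes BTD and COASY both did without low glucose library 3 (0.085 and 0.088), and 1 of them whichever other was left out. AACS was no longer called once low glucose library 1 was left out (0.075), nor once library 1 (0.052) or 2 (0.068) of high glucose was. The call of IDH1, the NADPH enzyme, held in all 18 alternative analyses. The AMP-activated kinase list had 1 of 8 genes called lower, the gamma subunit PRKAG1 (-0.11), which lost its call when low glucose library 1, 2 or 3 (0.064, 0.082 and 0.068) or library 2 or 3 of high glucose (0.078 and 0.060) was left out, with voom (0.121) and with only the groups compared in the fit (0.067). In mitochondrial fatty acid synthesis 2 of 9 were lower, MECR and LIAS (log2 fold changes -0.32 and -0.27, limma adjusted p = 0.0058 and 0.0094). Of the sterol genes 2 of 23 were higher and 7 lower. The cholesterol carrier STARD4 was at 59.9 FPKM in high glucose, down from 96.5 (-0.69, adjusted p = 9.7e-06), and HSD17B7, an enzyme of cholesterol synthesis, at 15.04, down from 23.8 (-0.65, adjusted p = 0.00020).

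For each gene the transcripts most like it across the 9 libraries were found by Pearson correlation of log2(FPKM + 0.5) among 11896 candidates. The libraries fall into 3 groups, so a high value mostly shows the same order of group means and is given as a description. ACLY was most like CTTN (r = 0.99), ACACA like IPO7 (0.99) and FASN like C19orf25 and CLPTM1 (0.996 each). SLC25A1 was most like C12orf57 (0.99), PNPLA3 like TK1 (0.997), ACACB like NTAN1 (0.98), ACSS2 like FAM114A2 (0.97) and MID1IP1 like IQCK (0.95), the lowest of these values.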

How the data were processed

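RNA of 9 libraries (3 groups of 3, from the treatment labels) was measured. Per the labels' protocols, polyA RNA went into a messenger RNA library kit. Per the submitters' processing notes, fastp 0.23.4, HISAT2 2.2.1, StringTie 2.2.1 and HTSeq 0.13.5 were used with hg38; no source used here gives their roles or the annotation. The table deposited by the authors holds FPKM, a unit read from the values. Whole reads were recovered from its steps for all 28230 genes above 0 in at least 2 libraries, within 4.4e-05 reads of a whole number (tolerance 0.002).

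The 16996 genes that averaged 0.5 FPKM or more in any group were tested on log2(FPKM + 0.5) with limma 3.58.1 (mean-variance trend, R 4.3.3), all libraries in 1 fit, two-sided contrasts and Benjamini-Hochberg adjustment over all genes tested. The script was tested on simulated data. Shares within a library used exact two-sided permutation tests. The members, the lists and the naming rule were chosen with earlier results of these data known. The rule named all 8 members, SCD, TXNIP, called cell type markers and the 3 transcripts most like each member. It also named up to 3 called genes with the smallest p of each list and comparison. Only some are printed. SREBF1, SREBF2, MLXIPL, SCAP, MBTPS2, MLYCD, GATA4 and some values of genes ranked lower in a comparison were named after their values were seen. Positions and lengths came from GENCODE 29 on hg38. The alternatives tried were limma voom on the recovered reads, scaling by median of ratios, pseudocounts of 0.1 and 1, a 5 FPKM filter or none, a replicate block, only the groups compared, a loess correction for GC content and length, and leaving out each library. Shares computed per kilobase of the longest transcript were added after seeing the data.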

Additional observations from a re-analysis of the deposited data

How the results depend on the processing

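The counts of synthesis genes called with chrysin stayed at 6 to 8 against high glucose (6 with all libraries) and 6 to 8 against low glucose (7) over 18 alternatives. Of all genes, 6279 to 8301 were called against high glucose over the same alternatives (45.8% of those tested in the main analysis). Against low glucose 6923 to 8984 were (51.0%), and between the glucose groups 2971 to 4654 (23.5%). The number of genes tested depended on the setting. Against low glucose, high glucose gave 1 call, which became 3 with limma voom on recovered reads, 3 after the GC content and length correction, and 2 with the replicate number as a block, where ACACA also passed (-0.14, adjusted p = 0.0496). Leaving out single libraries gave 0 to 2. The replicate block changed neither count with chrysin, and samples with the same number did not deviate together (correlations -0.015 to 0.0080, 0 of 9 pairs above 0.1), so the numbers pair nothing and no library was closest to its own number. Of 143 log2 fold changes of the 8 genes between glucose groups, 7 changed sign, none of them past the threshold. FASN, at 0.09, became -0.016 after the GC content and length correction. The other 6 came from leaving out single libraries, over which ACLY ranged from -0.0154 to 0.0121, MID1IP1 from -0.0724 to 0.0284 and ACACB from -0.0310 to 0.124. With chrysin none of the 143 changed sign in either comparison. Of 538 values of other genes named between the glucose groups, 66 lost their call. Both share differences kept their direction in all 9 alternatives of each comparison, and with 3 against 3 libraries no share could reach a p under 0.1. The cause of these shifts was not tested. ACACB, with 107 to 249 reads per library, has the fewest reads of the 8 genes, and the widest intervals.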
